A study of Mus musculus with 12 samples.

Results

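The 6 genes described here encode subunits of the phagocyte NADPH oxidase: Cybb, Cyba, Ncf1, Ncf4, Rac1 and Rac2. They were taken by gene symbol from the 30464 named genes of the array, each has 1 probe set, and all 6 passed the filter on low values that left 18119 genes for testing. RAW264.7 cells, a macrophage-like line from a tumour that a leukaemia virus caused in a mouse, were profiled on 12 Affymetrix arrays, 1 per sample, after 24 h in 1 of 4 media with 3 arrays each. One group stayed in normal medium (replicates 2, 3 and 4). In the other groups conditioned medium from PyMT-41C cells was mixed 50:50 with normal RPMI. It came from SCR cells (called SCR medium here; replicates 1, 3 and 4), from cells with JMJD6 knocked out (KO medium; replicates 1, 2 and 3), or from SCR cells with CSH added, which the labels call an ANXA-1 (annexin A1) receptor blockade (replicates 1, 2 and 4). The knockout is that of the donor PyMT-41C cells, and no edit of the RAW264.7 cells is labelled. The labels do not say whether the knockout line is a clone or a pool, and name no group with CSH in normal medium. The labels do not tie replicates to separate cultures. The p-values therefore reflect the spread among these arrays, and that spread may be technical.

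In macrophages and neutrophils this enzyme moves electrons from NADPH across a membrane onto oxygen and so makes the superoxide of the respiratory burst. Cybb encodes the catalytic, electron-carrying subunit, and Cyba its membrane partner, without which the Cybb protein is unstable. At rest Ncf1, the organiser, and Ncf4, which binds a phosphoinositide of the phagosome, sit in the cytosol. On stimulation they join the membrane pair together with a Rac GTPase, of which Rac2 is the form found mainly in blood cells and Rac1 the form found in most cells. Loss of the membrane or cytosolic subunits causes chronic granulomatous disease. Cybc1, a chaperone of the membrane pair, was not analysed here.

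Signals processed by RMA are given in log2 units, so a difference of 1 is a doubling of signal, and a level is given as mean ± SD with n = 3. Differences come from a limma fit over all 12 arrays, with a standard error (SE). A gene was called where the Benjamini-Hochberg adjusted p over all 18119 genes was below 0.05. RAW264.7 identity was checked on 10 macrophage markers: 9 are named on the array and 8 were tested, among them Cd68 and Lyz2, whose levels in normal medium were 17.19 and 17.70. Mertk lay below the array median throughout. Of 10 epithelial markers, which the cells that conditioned the medium could carry, 8 lay below the array median on every array, and the mean of the 10 stayed between 4.92 and 5.01 in all groups, under the array medians of 5.40 to 5.52. The arrays of a group lay a median of 0.043 to 0.077 from their group mean over all tested genes. Arrays measure RNA in bulk, so fewer cells with a transcript and less of it per cell cannot be told apart.

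Relative to normal medium, the membrane subunit Cybb fell far in every conditioned medium, Ncf1 and Rac2 fell by smaller amounts, Ncf4 rose, and Cyba and Rac1 did not pass the test. In SCR medium 4 of 6 members were called, 3 lower and 1 higher, where 35.2% of all tested genes were called, 15.8% lower and 19.3% higher. In KO medium the members' counts were again 3 lower and 1 higher, against 39.1% of all genes called, 17.6% lower and 21.4% higher. In SCR medium with CSH they were 3 lower and 1 higher, against 35.8%, 14.9% lower and 20.9% higher. These 3 comparisons share the normal medium arrays. The members' median change was -0.20, -0.21 and -0.20 in that order, where the median over all tested genes was 0.017, 0.0067 and 0.033. The arrays of conditioned and normal medium did not overlap for 4, 4 and 5 of the 6 members, compared with 43.3%, 49.8% and 46.8% of all genes.

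**Figure D1:**
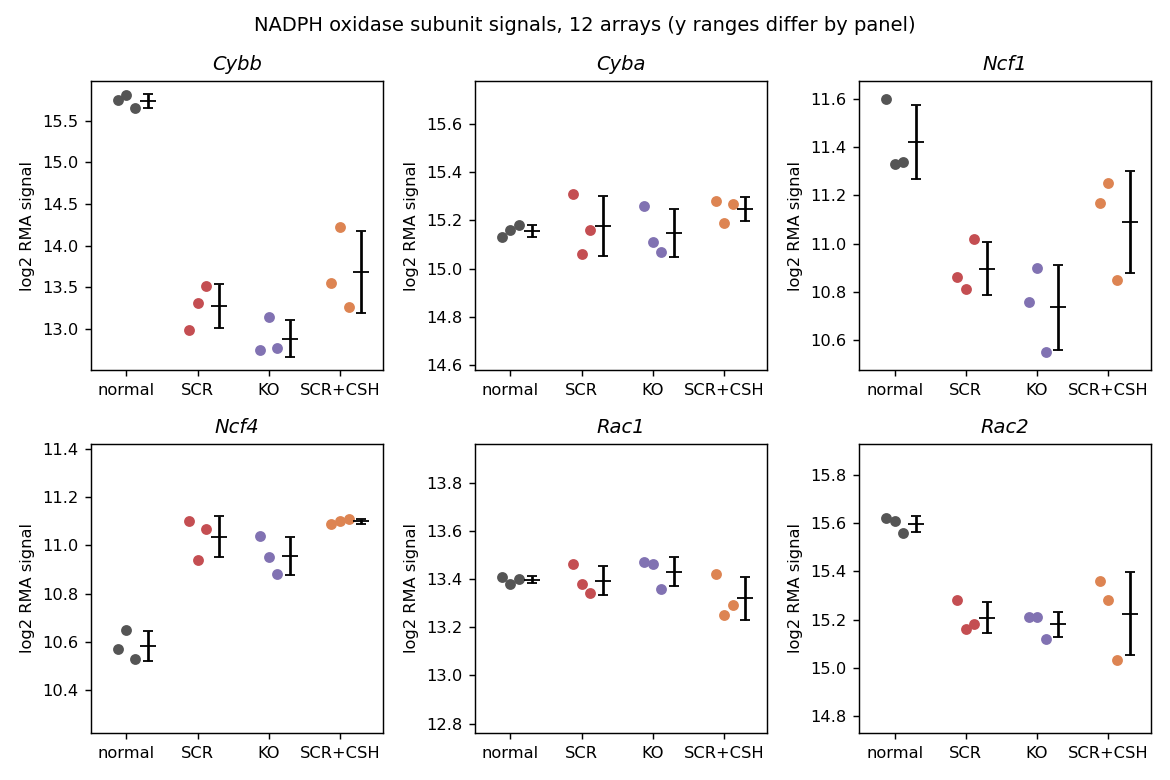
Log2 RMA signal (y axis, range set per panel) of each subunit on every array (points) by medium (x axis), with the group mean and SD as a bar beside the points (n = 3). Cybb lies between 15.65 and 15.81 in normal medium and between 12.74 and 14.22 in the conditioned media, while Cyba and Rac1 hold similar levels in all 4 media.

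Cybb (GRCm38.p6, chromosome X, 9435252 to 9487766) carries the largest change of the set. Its normal medium arrays read 15.75, 15.81 and 15.65. In SCR medium they read 12.99, 13.31 and 13.51, in KO medium 12.74, 13.14 and 12.77, and in SCR medium with CSH 13.55, 14.22 and 13.26. Every conditioned array lay below every normal one, and the CSH arrays were the most scattered (SD 0.49, against 0.081 in normal medium). In SCR medium the level fell by 2.47 (SE 0.20, adjusted p = 1.44e-06 by limma), which is 5.53-fold. In KO medium it fell by 2.85 (adjusted p = 2.67e-07), 7.23-fold, and with CSH it differed by -2.06 (adjusted p = 6.59e-06), 4.17-fold lower. Among the 18119 genes Cybb stood at place 9, 10 and 24 from the lowest change in SCR medium, KO medium and SCR medium with CSH.

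**Figure D2:**
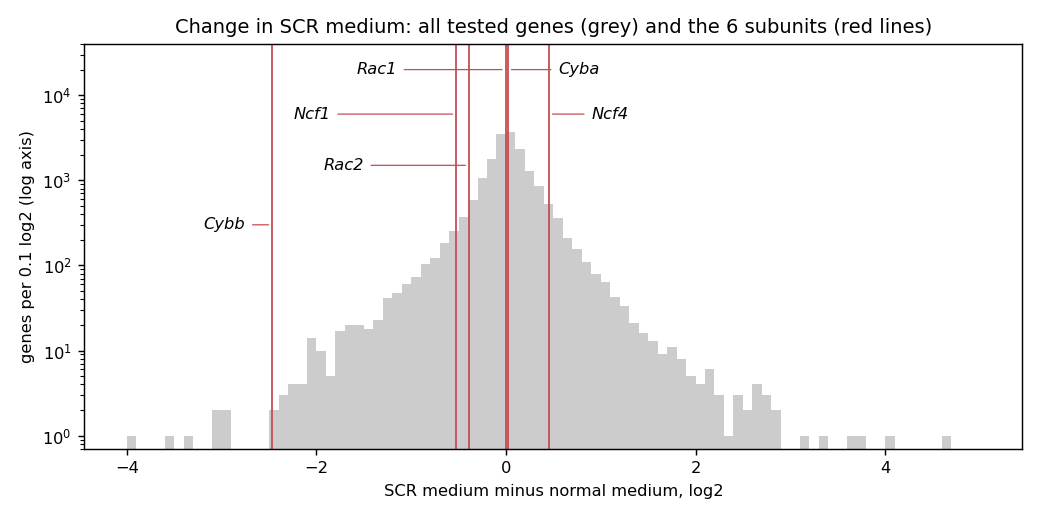
Histogram of the change from normal to SCR medium for all 18119 tested genes (x axis, log2 difference; y axis, genes per bin on a log axis), with the 6 subunits as red lines. Cybb at -2.47 lies in the far lower tail, Ncf1 and Rac2 lie below the centre, Ncf4 lies above it, and Cyba and Rac1 lie at the centre.

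The promoter windows of Cybb, Ncf1 and Cyba show which binding motifs of myeloid factors stand at the start of a gene that fell far, a gene that fell less and a partner that did not pass. RefSeq windows (GRCm38.p6, 250 bases before to 50 after the start, minus strand) were at hand for these 3 of the 6 members. The Cybb window lies inside the span given above for the gene, so it belongs to a transcript start downstream of the outermost annotated one, while the Ncf1 and Cyba windows lie at the ends of their genes. The windows are chrX:9469275-9469574 for Cybb, chr5:134229576-134229875 for Ncf1 and chr8:122432891-122433190 for Cyba. Capitals mark every match, on either strand, to GAGGAA (a core bound by PU.1, the product of Spi1), the IRF repeat (the interferon-stimulated response element), the ETS-IRF composite element (bound by PU.1 with an interferon regulatory factor), TGACTCA (the AP-1 site) or CCAAT.
Cybb: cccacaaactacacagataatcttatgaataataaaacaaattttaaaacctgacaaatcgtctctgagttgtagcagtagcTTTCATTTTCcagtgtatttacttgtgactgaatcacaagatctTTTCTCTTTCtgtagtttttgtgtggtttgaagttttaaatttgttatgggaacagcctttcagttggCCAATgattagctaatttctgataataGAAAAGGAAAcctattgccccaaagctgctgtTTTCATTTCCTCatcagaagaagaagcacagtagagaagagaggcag
Ncf1: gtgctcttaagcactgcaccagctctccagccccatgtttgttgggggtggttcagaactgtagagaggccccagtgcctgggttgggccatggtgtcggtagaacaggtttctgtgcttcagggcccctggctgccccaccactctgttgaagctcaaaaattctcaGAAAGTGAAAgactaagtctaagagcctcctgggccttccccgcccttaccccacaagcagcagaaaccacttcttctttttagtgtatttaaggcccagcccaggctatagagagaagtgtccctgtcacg
Cyba: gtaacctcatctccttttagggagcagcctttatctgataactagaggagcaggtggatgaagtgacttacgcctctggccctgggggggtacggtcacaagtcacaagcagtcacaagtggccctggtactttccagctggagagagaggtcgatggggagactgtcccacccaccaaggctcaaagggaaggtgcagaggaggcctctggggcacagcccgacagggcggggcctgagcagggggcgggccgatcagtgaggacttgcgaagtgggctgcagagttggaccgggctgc
In the Cybb window the composite element lies on the minus strand of the gene at bases 4 to 13 after the start. It overlaps a GAGGAA at bases 10 to 15, so that both form 1 run of capitals. Cybb also holds 3 IRF repeats and 1 CCAAT, Ncf1 holds 1 IRF repeat, and Cyba holds no match to the 5 motifs. Over 32851 windows of this length, the composite element was in 0.73%, the IRF repeat in 3.44%, TGACTCA in 5.2%, GAGGAA in 28.3% and CCAAT in 37.4%. A match is a description of the letters and was not tested as a site.

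Cyba (chromosome 8, 122424771 to 122432940), the membrane partner of the Cybb protein, read 15.13, 15.16 and 15.18 in normal medium. It read 15.31, 15.06 and 15.16 in SCR medium, 15.26, 15.11 and 15.07 in KO medium, and 15.28, 15.19 and 15.27 with CSH. The arrays of normal, SCR and KO medium overlapped, and the CSH arrays all lay above normal medium by a small margin. The differences from normal medium were 0.020 (95% interval -0.12 to 0.16), -0.010 (-0.15 to 0.13) and 0.090 (-0.054 to 0.23), with adjusted p from limma of 0.861, 0.93 and 0.336. The sign of the SCR and KO differences changed in some alternatives, and no alternative called them.

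The change of the catalytic subunit differed from that of its membrane partner. Within arrays, Cybb minus Cyba differed by -2.49 between the 9 conditioned arrays and the 3 normal ones (exact two-sided permutation p = 0.00455, adjusted p = 0.00455 over 5 pairs, the smallest that 220 splits can give). The same test gave -1.94 against Ncf1, -2.91 against Ncf4, -2.44 against Rac1 and -2.07 against Rac2, each with exact p = 0.00455. Cybb was set against the others with its larger change already known, and its conditioned arrays all lay far below the normal ones, so these p-values restate that gap and are no independent evidence.

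Ncf1 (chromosome 5, 134220053 to 134229628), the cytosolic organiser, read 11.60, 11.33 and 11.34 in normal medium and 10.86, 10.81 and 11.02 in SCR medium. It read 10.76, 10.90 and 10.55 in KO medium and 11.17, 11.25 and 10.85 with CSH. All conditioned arrays lay below all normal arrays, the nearest being CSH replicate 2. Ncf1 fell by 0.53 in SCR medium (SE 0.12, adjusted p = 0.00362 by limma) and by 0.69 in KO medium (adjusted p = 0.000452). With CSH it fell by 0.33 (adjusted p = 0.0438), a call close to the threshold. That last call was lost in 10 of 22 alternatives, with adjusted p from 0.00729 to 0.187 over all of them. The losses include 6 of the single arrays left out: normal replicates 2 (-0.24, adjusted p = 0.174) and 4, SCR replicate 1, KO replicate 1, and CSH replicates 1 and 4 (-0.21, adjusted p = 0.187).

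Ncf4 (chromosome 15, 78244164 to 78262582), which ties the cytosolic complex to the phagosome membrane, was the only member called higher. It read 10.57, 10.65 and 10.53 in normal medium and 11.10, 10.94 and 11.07 in SCR medium. It read 11.04, 10.95 and 10.88 in KO medium and 11.09, 11.10 and 11.11 with CSH. The 9 conditioned arrays all lay above the 3 normal ones. Ncf4 rose by 0.45 in SCR medium (SE 0.064, adjusted p = 0.000116 by limma), by 0.37 in KO medium (adjusted p = 0.000416) and by 0.52 with CSH (adjusted p = 4.3e-05). These rises are 1.37-fold, 1.29-fold and 1.43-fold.

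Of the Rac GTPases, the form of blood cells was lower in the conditioned media and the widely expressed form did not pass. Rac2 (chromosome 15, 78559169 to 78572783) read 15.62, 15.61 and 15.56 in normal medium and 15.28, 15.16 and 15.18 in SCR medium. It read 15.21, 15.21 and 15.12 in KO medium and 15.36, 15.28 and 15.03 with CSH, below normal medium on all 9 arrays. The falls were 0.39 (that is, -0.39, SE 0.073, adjusted p = 0.000989 by limma), 0.42 (-0.42, adjusted p = 0.000496) and 0.37 (-0.37, adjusted p = 0.00139). Rac1 (chromosome 5, 143505481 to 143528031) had group means of 13.40 ± 0.015 in normal medium, 13.39 ± 0.061 in SCR medium, 13.43 ± 0.061 in KO medium and 13.32 ± 0.089 with CSH (SD, n = 3). Its arrays overlapped between all media. Its differences from normal medium were -0.0033 (95% interval -0.13 to 0.12), 0.033 (-0.094 to 0.16) and -0.077 (-0.20 to 0.051). Only quantile normalization called 1 of them, the CSH difference, at -0.17 (adjusted p = 0.0301). Rac1 and Rac2 are paralogs close in sequence, and whether their probe sets share signal was not tested.

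**Figure D3:**
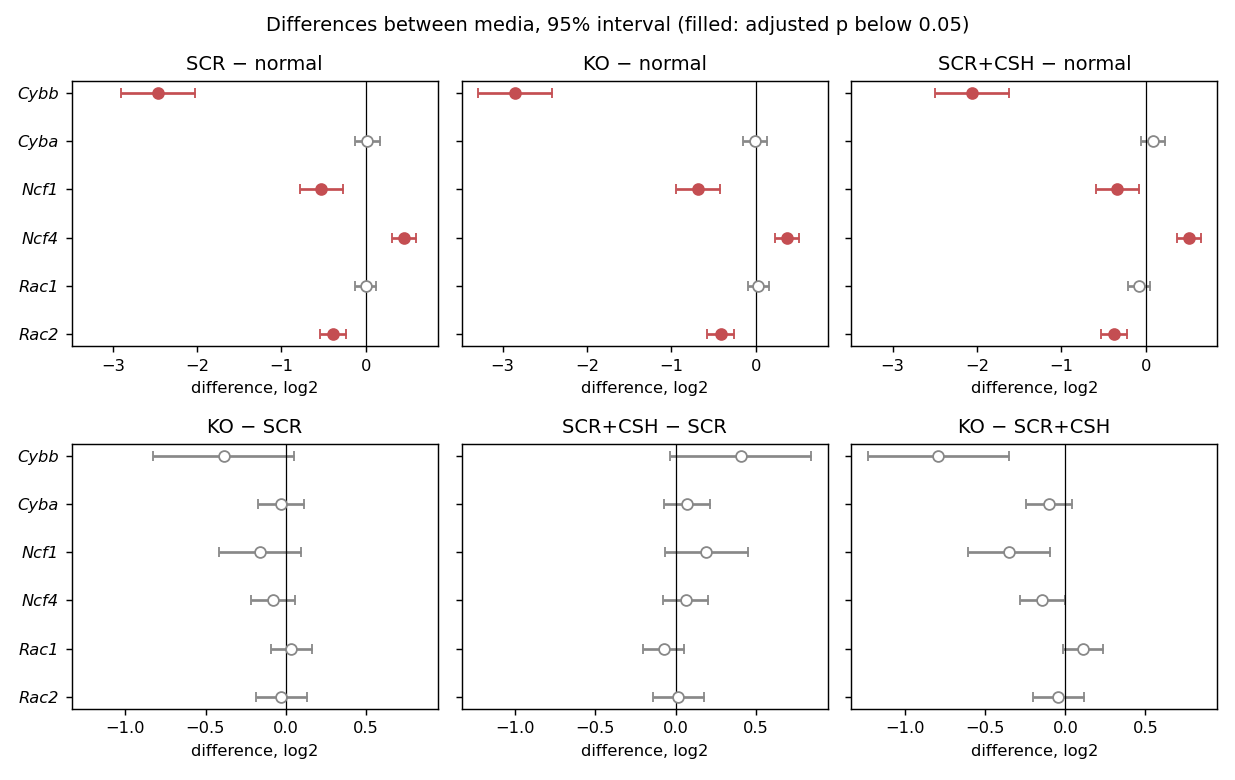
Difference of each subunit between media (x axis, log2; points with 95% intervals from the limma fit; upper and lower rows have different x ranges), filled red where the adjusted p was below 0.05. In the upper row, against normal medium, Cybb, Ncf1 and Rac2 lie below 0 and Ncf4 above it, and in the lower row, between conditioned media, no member was called.

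Comparing the conditioned media asks whether JMJD6 in the cells that make the medium, or CSH added to it, alters these genes. Between KO and SCR medium 0 of 6 members were called and 0 had an unadjusted p below 0.05, where 0.27% of all genes were called and 5.95% had such a p. Between SCR medium with CSH and SCR medium 0 of 6 were called and 0 had an unadjusted p below 0.05, where 0% of all genes were called and 6.24% had such a p. The arrays overlapped for all members in both, where 9.37% and 8.59% of all genes did not overlap. Cybb differed by -0.39 in KO medium (95% interval -0.83 to 0.052, adjusted p = 0.915 by limma) and by 0.41 with CSH (-0.032 to 0.85, adjusted p = 0.836). Without CSH replicate 2, the array at 14.22, the CSH difference was 0.14 (adjusted p = 0.997). For the other 5 members the differences ran from -0.16 to 0.037 in KO medium and from -0.073 to 0.19 with CSH.

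KO medium was also set against SCR medium with CSH. These media differ both in the knockout of the donor cells and in the added CSH, which this comparison cannot tell apart. Here too 0 of 6 members passed, where 1.9% of all genes did, and 3 had an unadjusted p below 0.05, as did 15.7% of all genes. Cybb was lower in KO medium by 0.79 (-0.79, 95% interval -1.23 to -0.35, adjusted p = 0.0728 by limma), and its 3 KO arrays, up to 13.14, all lay below the CSH arrays, from 13.26. A stricter filter on low values (adjusted p = 0.0489), array weights (adjusted p = 0.0377) and leaving out CSH replicate 4 (-1.0, adjusted p = 0.031) put it past the threshold. In the other 19 of 22 alternatives it stayed uncalled, with adjusted p up to 0.207. Without CSH replicate 2 it was -0.52 (adjusted p = 0.194). Ncf1 differed by -0.35 (adjusted p = 0.171) and Ncf4 by -0.14 (adjusted p = 0.301). The arrays did not overlap for 2 members, Cybb and Ncf4, and for 21.8% of all genes.

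For Cybb, Ncf1 and Rac2 the group means ran in 1 order: normal medium highest, then SCR medium with CSH, SCR medium and KO medium. Of the neighbours in that order, only normal medium and SCR medium with CSH differed past the threshold for each gene. The conditioned means of Rac2 lay close together (15.22 with CSH, 15.21 in SCR medium and 15.18 in KO medium). Their sign changed in 5 of 22 alternatives between CSH and SCR medium and in 3 between KO and SCR medium. Ncf4 ran from SCR medium with CSH (11.10 ± 0.010) through SCR medium (11.04 ± 0.085) and KO medium (10.96 ± 0.080) to normal medium (10.58 ± 0.061; SD, n = 3). There only KO and normal medium, as neighbours, differed past the threshold. For Cyba and Rac1 no neighbours did.

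The genes with the pattern most like each member were found by the root mean square difference between centred log2 values over the 12 arrays. For Cybb they were Clec12a, an inhibitory myeloid lectin receptor (0.18), Rasgrp3, a Ras exchange factor (0.20), and Cx3cr1, the fractalkine receptor (0.22). Clec12a differed from normal medium by -2.27, -2.61 and -2.08 in SCR medium, KO medium and SCR medium with CSH. For Ncf1 they were Ndst2 (0.073), Slc44a2 (0.074) and Mfge8 (0.083), and for Ncf4 Noc3l (0.052), P3h1 (0.053) and Mgat5 (0.053). For Rac2 they were Anapc5 (0.037), Acap3 (0.041) and Gdpd5 (0.044). Cyba and Rac1 changed so little that their nearest genes, at 0.026 for Aifm1 and 0.029 for Osbpl1a, share a small spread.

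Around the complex, the genes that switch it on moved in both directions in SCR medium. The counts of called genes stand against the share over all tested genes in that comparison: 35.2% called, 19.3% higher and 15.8% lower. Of 10 partners and paralogs, 7 are named on the array and 3 passed the filter on low values. Nox3, the catalytic oxidase of the inner ear, rose from 5.67 ± 0.068 to 6.93 ± 0.29 (SD, n = 3), a change of 1.26 (adjusted p = 8.76e-06 by limma), and Noxo1 and Rac3 did not pass. Nox3 read 7.31 in KO medium and 6.49 with CSH, a difference of 0.81 (adjusted p = 0.00874), and its arrays did not overlap between these media. Its level in normal medium was near the array median, so the size of its change is uncertain. Nox1, Nox4, Duox2 and Noxa1 stayed at or below 5.09 in every group mean.

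Among 12 tested activators of Rac and the oxidase, 1 was higher and 5 lower in SCR medium, where 35.2% of all genes were called, with a median of -0.092 against 0.017 for all genes. The Rac exchange factor genes Prex1 (-0.61), Vav3 (-0.78) and Dock1 (-0.60) fell, and Elmo1, the partner of Dock proteins, rose (0.52). Among 16 kinases and lipid enzymes that signal to the oxidase, 4 were higher and 8 lower, with a median of -0.25. The phosphoinositide kinase gene Pik3cd (-1.02) and the Src-family kinase gene Fgr (-1.40) fell, and Pla2g4a, the cytosolic phospholipase (1.53), and Prkce (0.52) rose. Syk, the kinase downstream of Fc receptors, differed by 0.11 in SCR medium (adjusted p = 0.367) and was higher by 0.41 in KO medium than in SCR medium with CSH (adjusted p = 0.0293).

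Of 16 tested receptors that trigger the burst, 8 were higher and 5 lower in SCR medium, where 35.2% of all genes were called, with a median of 0.17. The high-affinity IgG receptor gene Fcgr1 (2.57), Tlr4 (1.42), the platelet-activating factor receptor gene Ptafr (1.51) and the complement receptor gene C3ar1 (0.80) rose. Those called lower were Clec7a (-1.13), C5ar1 (-0.56), Ifngr1 (-0.55), Fcgr4 (-0.39) and Tnfrsf1a (-0.28). Tlr4 and C3ar1 were also higher in KO medium than in SCR medium with CSH, by 0.61 (adjusted p = 0.011) and 0.37 (adjusted p = 0.0364). Of 5 tested ion channels and exchangers that balance the charge the enzyme moves, 3 were higher and 1 lower. They were Clcn5 (0.59), Kcnn4 (0.36) and Clcn3 (0.28), and the proton channel gene Hvcn1 (-0.18).

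Of 13 tested transcription factors known for Cybb and other myeloid oxidase genes, 2 were higher and 4 lower in SCR medium, with a median of -0.040. Over all genes 35.2% were called. Spi1, which encodes PU.1, read 9.32 ± 0.053 in normal medium and 9.23 ± 0.12 in SCR medium (SD, n = 3), and its difference of -0.087 did not pass (adjusted p = 0.457). Irf8, an interferon regulatory factor gene, fell from 10.58 ± 0.14 to 10.12 ± 0.085 (-0.46, adjusted p = 0.000829). It fell by 0.64 in KO medium and by 0.47 with CSH. Elf1 (-0.37) and Cebpa (-0.57) fell and Rela (0.37) rose. Cebpa, a myeloid lineage factor, was lower in KO medium than in SCR medium with CSH by 0.53 (-0.53, adjusted p = 0.0245).

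Of 10 tested genes that handle superoxide and peroxide, 4 were higher and 3 lower in SCR medium, with a median of -0.093. Aqp9, an aquaporin gene, rose by 1.45, and Gpx4, a peroxidase of lipid peroxides, by 0.77. Sod1, which turns superoxide into peroxide, fell by 0.59 and Prdx4 by 0.38. Aqp9 was higher in KO medium than in SCR medium with CSH by 0.29 (adjusted p = 0.0473). No gene of the 7 lists around the complex was called between KO and SCR medium or between SCR medium with CSH and SCR medium.

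**Figure D4:**
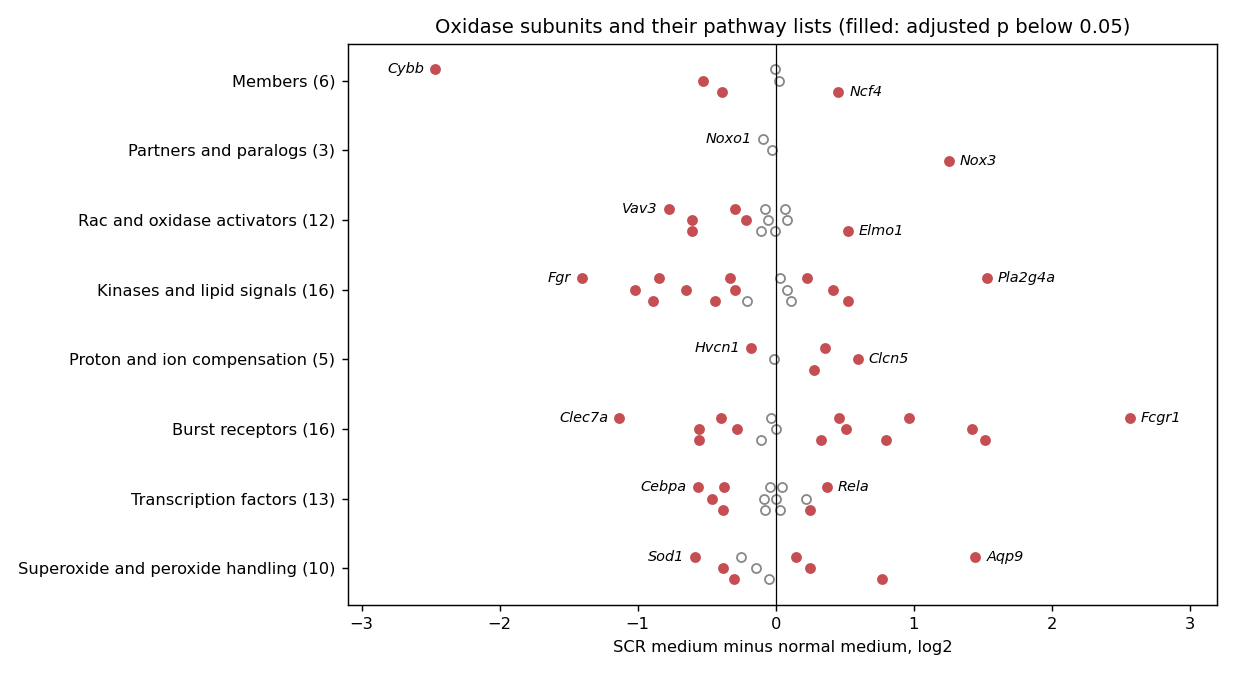
Change from normal to SCR medium (x axis, log2) of the 6 subunits and of the tested genes in 7 lists around the oxidase (rows, number of tested genes in brackets; points are staggered within a row for sight), filled red where the adjusted p was below 0.05. Cybb at -2.47 lies lowest of all genes drawn and Fcgr1 at 2.57 highest.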

How the data were processed

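The authors deposited log2 signals. The submitters' processing notes name RMA, Affymetrix Expression Console and build mm10; versions, probe filters and batch handling are not given in those notes. RMA as usually run normalizes between arrays, so total RNA per cell cannot be read from such values. The deposited arrays do not share 1 exact distribution: their medians run from 5.40 to 5.52. The table holds 65528 probe sets and 0 missing values. Names came from the platform table, with older symbols and Entrez numbers updated through RefSeq (GRCm38.p6, the assembly of mm10): 31018 probe sets had 1 symbol, 1478 several and 33032 none listed. Probe sets with several symbols named no gene. The probe set with the highest mean stood for a gene. Genes above the array median on at least 3 arrays were tested.

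The test was limma 3.58.1 (R 4.3.3), fitted on 12 arrays with the 4 groups and an intensity trend in eBayes, with 8 residual degrees of freedom (residual SD over genes, median 0.096). It was checked on simulated data. Unequal change of gene pairs was tested by an exact permutation over arrays. The number of arrays limits the precision. The members, lists, motifs and tests were chosen with earlier results of these data known. The genes named are the 6 members, up to 4 genes of each list with the smallest p in SCR medium against normal medium, Irf8 and Spi1, list genes called between conditioned media, and the 3 genes most like a member. Further markers (Cd14, Cd33, Cd68, Lyz2, Mertk and those of neutrophils) and the burst receptor genes called lower were named after their values were seen. Alternatives were other filters, scalings and thresholds, no intensity trend, a mean over probe sets, weighted arrays, a replicate block, the 6 arrays of a comparison alone, and each array left out. Python 3.11.15 and matplotlib 3.10.9 made the figures.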

Additional observations from a re-analysis of the deposited data

How the results depend on the processing

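Of 792 values of single members under alternatives, 754 kept both their sign and their side of the threshold, 10 lost a call, 4 gained 1 and 24 changed sign. All falls of Cybb and Rac2 and all rises of Ncf4 against normal medium, and the falls of Ncf1 in SCR and KO medium, kept their calls in all 22 alternatives at the adjusted p threshold of 0.05. With each array left out in turn, the count of members called was 4 against normal medium in SCR and KO medium, 3 to 4 with CSH, 0 between KO and SCR medium and between SCR medium with CSH and SCR medium, and 0 to 1 between KO medium and SCR medium with CSH. An added fold of 1.5 left 1, 2 and 1 members in SCR medium, KO medium and SCR medium with CSH, all lower. A stricter filter and array weights each called 1 member, Cybb, between KO medium and SCR medium with CSH.

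The values that changed sign were called on neither side. For Cyba they were 0.0049 (KO against normal medium, array weights) and -0.0019 (CSH against SCR medium, quantile normalization). For Rac1 against normal medium in KO medium it was -0.053 (quantile normalization). For Rac2 they were 0.0055 (KO against SCR medium, array weights), 0.034 (KO medium against SCR medium with CSH) and -0.055 (CSH against SCR medium), the last pair by quantile normalization. Single arrays left out moved Cyba from -0.067 to 0.028 (KO against normal medium), -0.088 to 0.037 (KO against SCR medium) and -0.047 to 0.078 (SCR against normal medium), Rac1 from -0.037 to 0.023 (SCR against normal medium), and Rac2 from -0.05 to 0.01 (KO against SCR medium), -0.14 to 0.025 (KO medium against SCR medium with CSH) and -0.052 to 0.11 (CSH against SCR medium).

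Whether replicate numbers mark a shared culture or day is not in the labels. Of 12 same-numbered pairs 5 had deviations correlated above 0.1 (median 0.069, range -0.065 to 0.29), and of 42 pairs with different numbers 8 did (median -0.046). Pairs numbered 1 lay at 0.14, 0.29 and 0.21, and pairs numbered 2 at 0.075, 0.12 and 0.25, while those numbered 3 and 4 ran from -0.065 to 0.063. As the labels state no block, the main fit did not treat the arrays as paired, and the number was used as a block in alternatives only. Whether some of the numbers share a culture or day was not tested. With the number as a fixed replicate block, 4, 4, 4, 0, 0 and 0 members were called in the 6 comparisons, as without it, and KO medium against SCR medium with CSH called 214 genes in place of 345. The sign changed under that block for Cyba in SCR against normal medium (-0.03), Rac1 in KO against normal medium (-0.0025) and Rac2 in CSH against SCR medium (-0.0088). A random replicate block called 1 gene with CSH against SCR medium.

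Counts over all genes moved more. Between KO and SCR medium, 49 genes became 28 (added fold), 19 (adjusted p below 0.01), 376 (array weights), 21 (6 arrays alone) and 20 to 50 with single arrays left out, namely 26, 20 and 23 without SCR replicates 1, 3 and 4 and 21 and 22 without KO replicates 1 and 3. Between KO medium and SCR medium with CSH, 345 became 72 (added fold), 80 (adjusted p below 0.01), 210 (no filter), 574 (quantile normalization), 154 (median centring, 77.9% higher in place of 63.5%), 654 (array weights), 168 (6 arrays alone) and 107 to 373 with single arrays left out, namely 124, 160 and 154 without KO replicates 1, 2 and 3 and 107 and 201 without CSH replicates 2 and 4. Between CSH and SCR medium, 0 became 1 (stricter filter) and 79 (array weights). The array weights were 6.1 for SCR replicate 4, against 0.53 and 0.39 for SCR replicates 1 and 3. The weighted SCR group therefore leans mostly on replicate 4. The added fold left 1676, 2077 and 1628 genes in SCR medium, KO medium and SCR medium with CSH against normal medium. The cause of these moves was not tested. The unequal changes of Cybb had adjusted p by permutation between 0.00606 and 0.0182 with single arrays left out. Both ends are the smallest that the splits of the remaining arrays can give, so they add no evidence.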

Other observations

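Markers of the macrophage lineage outside the oxidase moved in both directions in the conditioned media. Of 8 tested, 3 were higher and 4 lower in SCR medium by limma with an adjusted p below 0.05, where 35.2% of all tested genes were called. Csf1r, the receptor for macrophage colony-stimulating factor, fell from 13.70 ± 0.12 to 11.90 ± 0.10 (SD, n = 3), a change of -1.79, and Adgre1, which encodes the F4/80 antigen, fell by 1.45. Cd33 fell by 0.76. Cd68, a lysosomal glycoprotein gene, was also lower in KO medium than in SCR medium with CSH (-0.19, adjusted p = 0.0383). Itgam, the alpha chain of complement receptor CR3, rose by 0.97 and Cd14 by 0.61. The summed level of the 9 named markers, as a mean over genes, ran from 12.94 to 12.98 over the normal medium arrays and from 12.93 to 13.04 over the SCR medium arrays. The part of this shift in the oxidase values was not tested.

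Of 9 neutrophil markers, 5 were tested. S100a8 read 4.88 to 5.36 in normal medium, below every array median, and 7.13 to 7.44 in SCR medium. It passed the filter through the conditioned arrays alone, so no size or test of its change is given. The other tested markers, S100a9 (-0.04), Ly6g (-0.093), Camp (0.087) and Cxcr2 (-0.047), did not pass in SCR medium (adjusted p from 0.345 to 0.808 by limma). Elane, Mpo, Ngp and Ltf, further defining genes of neutrophils, were too low to be tested.

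The motifs of the Cybb window were also counted over all tested genes with a promoter window. Of 89 genes whose window holds the ETS-IRF composite element, 21.4% fell and 24.7% rose in SCR medium. Of 389 with the IRF repeat, 20.6% were lower and 23.4% higher. Of 3163 with GAGGAA, 20.4% were lower and 23.3% higher, and of 4462 with CCAAT, 20.4% and 22.9%. Over all 10445 tested genes with a window these shares were 19% and 23.2%. The difference between these shares was not tested.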
